A study of Mus musculus with 9 samples.

Results

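Glucose is handled in the renal cortex by a small set of membrane transporters and by genes whose transcription follows the glucose level of the cell. Described here are 9 such genes of the mouse, taken by name from the 21950 genes whose mRNA levels were measured: the sodium-glucose cotransporters Slc5a1 (SGLT1) and Slc5a2 (SGLT2), the facilitative transporters Slc2a1 (GLUT1), Slc2a2 (GLUT2), Slc2a4 (GLUT4) and Slc2a5 (GLUT5), the alpha-arrestins Txnip and Arrdc4, and Mlxipl, which encodes the transcription factor ChREBP. In the proximal tubule, SGLT2 in the early segments (S1 and S2) and SGLT1 in the last segment (S3) take glucose up from the filtrate, and GLUT2 lets it leave toward the blood. ChREBP is activated by products of glucose metabolism and, together with its partner MLX, binds paired E-box elements in the promoters of Txnip and Arrdc4, whose proteins lower glucose uptake by drawing transporters from the cell surface.

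The libraries came from renal cortex of male mice on the C57BL/KsJ background at 15 weeks of age, with 3 mice per group and 1 library per mouse. The control group was heterozygous for the db mutation of the leptin receptor gene (db/m, littermates without diabetes). The dbdb group was homozygous for db and received vehicle by gavage, and the dbR group was homozygous for db and was gavaged with 20 mg/kg/day of rosiglitazone, which activates the nuclear receptor PPARγ, over 8 weeks that began at 7 weeks of age. All 3 groups thus carried at least 1 db allele, the name of the strain (BKS.Cg-Dock7m+/+Leprdb/Nju) also lists the Dock7m allele, and no gavage was described for the control mice. The db mutation changes the splicing of Lepr in every cell, so a difference between control and dbdb mice holds the absence of leptin signaling, obesity and diabetes together. FPKM (fragment numbers corrected for the length of the transcript and the depth of the library) were added up over all mRNA transcripts of a gene, so levels can be set beside each other between genes, and differences are given as differences of mean log2(FPKM + 0.1) with their standard error (SE). In bulk cortex, fewer cells of a type and less RNA per cell cannot be told apart.

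Each library held an estimated 26.1 M to 33.0 M fragments, read from the smallest steps between the FPKM values. Lepr itself was between 1.05 and 1.23 FPKM in the control libraries and between 0.304 and 0.652 FPKM in the 6 db/db libraries, in the direction of the labels. Markers of the proximal tubule were high in every library, with 3108 to 4094 FPKM summed over 6 genes, and those of the intestine that are absent from kidney, Sis and Fabp2, were at or near 0. The libraries differed in segment markers: the summed level of 5 markers of segment S3 was between 782 and 1089 FPKM in control, between 187 and 204 FPKM in dbdb and between 227 and 296 FPKM in dbR libraries. Markers of the distal convoluted tubule (3 genes) summed to between 156 and 176 FPKM in control, between 287 and 314 FPKM in dbdb and between 320.2 and 359 FPKM in dbR libraries. The dbdb replicate 3 stood apart within its group, with 697 FPKM for the 4 markers of S1 and S2, of which Slc5a2 is 1, against 863 and 960 in the other dbdb libraries, and 510.3 FPKM for the 3 markers of the thick ascending limb against 314 and 315.

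The upstream sequences of Txnip, Arrdc4 and Mlxipl are shown because ChREBP acts through E-boxes and the 3 genes were measured together. Each is the 250 bases before the RefSeq transcription start in GRCm38.p6, written 5′ to 3′ on the strand of the gene. Capitals mark a paired E-box-like motif (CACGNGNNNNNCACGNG, with N any base) in Txnip and the E-box CACGTG in Arrdc4 and in the upstream of the 2 starts of Mlxipl.
Txnip, chr3:96557707-96557956, plus strand: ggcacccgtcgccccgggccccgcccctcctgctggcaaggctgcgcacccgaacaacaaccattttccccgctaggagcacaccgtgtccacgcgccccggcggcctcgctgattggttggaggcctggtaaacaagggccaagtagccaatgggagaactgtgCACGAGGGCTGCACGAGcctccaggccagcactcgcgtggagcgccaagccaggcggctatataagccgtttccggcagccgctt
Arrdc4, chr7:68749239-68749488, minus strand: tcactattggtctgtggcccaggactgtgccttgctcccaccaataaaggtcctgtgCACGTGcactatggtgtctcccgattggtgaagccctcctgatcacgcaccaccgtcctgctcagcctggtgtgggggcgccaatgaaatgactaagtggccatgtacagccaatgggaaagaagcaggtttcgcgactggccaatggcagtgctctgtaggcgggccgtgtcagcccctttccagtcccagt
Mlxipl, chr5:135089640-135089889, plus strand: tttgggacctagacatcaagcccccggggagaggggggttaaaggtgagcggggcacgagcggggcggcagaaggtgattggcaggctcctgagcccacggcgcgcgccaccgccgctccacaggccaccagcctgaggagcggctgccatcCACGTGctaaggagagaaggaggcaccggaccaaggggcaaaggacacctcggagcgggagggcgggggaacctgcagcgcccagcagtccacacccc

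The paired motif of Txnip, CACGAGGGCTGCACGAG, begins 85 bases before the start. On both strands, 15 of 32851 promoter windows of the same length (0.0457%) held the paired motif. The single E-box CACGTG begins 193 bases before the start of Arrdc4, 98 bases before that of Mlxipl and 143 bases before that of Slc5a1, and 6.02% of all windows held it. The 5 letters CCAAT occurred 6 times before Arrdc4, 2 times each before Txnip and Slc2a2 and 1 time before the upstream start of Mlxipl. At least 1 copy was in 33.8% of all windows, 2 or more in 10.1% and 4 or more in 0.840%. The table of promoters held 8 windows for 7 of the 9 genes, and the windows of Slc2a1, Slc2a2, Slc2a5 and the inner start of Mlxipl held neither E-box motif. The window of Arrdc4 held the single E-box and not the paired motif. A match of these letters is a description of the sequence and not a measured binding site.

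Averaged over the 9 libraries, Slc5a2 had the highest level of the 9 genes with 252 FPKM, and 2.07% of the 14537 genes tested had a higher one. Txnip followed with 112 FPKM, Slc2a2 with 75.2 FPKM, Mlxipl with 61.9 FPKM and Slc2a5 with 41.0 FPKM. Slc5a1 had 22.2 FPKM and Slc2a1 9.16 FPKM. Slc2a4 with 7.22 FPKM and Arrdc4 with 5.81 FPKM were the lowest, and their order was not the same in every group: in control libraries Arrdc4 averaged 4.81 ± 0.386 FPKM (SD, n = 3) and Slc2a4 4.10 ± 0.920 FPKM. All 9 genes passed the filter of a mean of at least 0.1 FPKM.

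**Figure D1:**
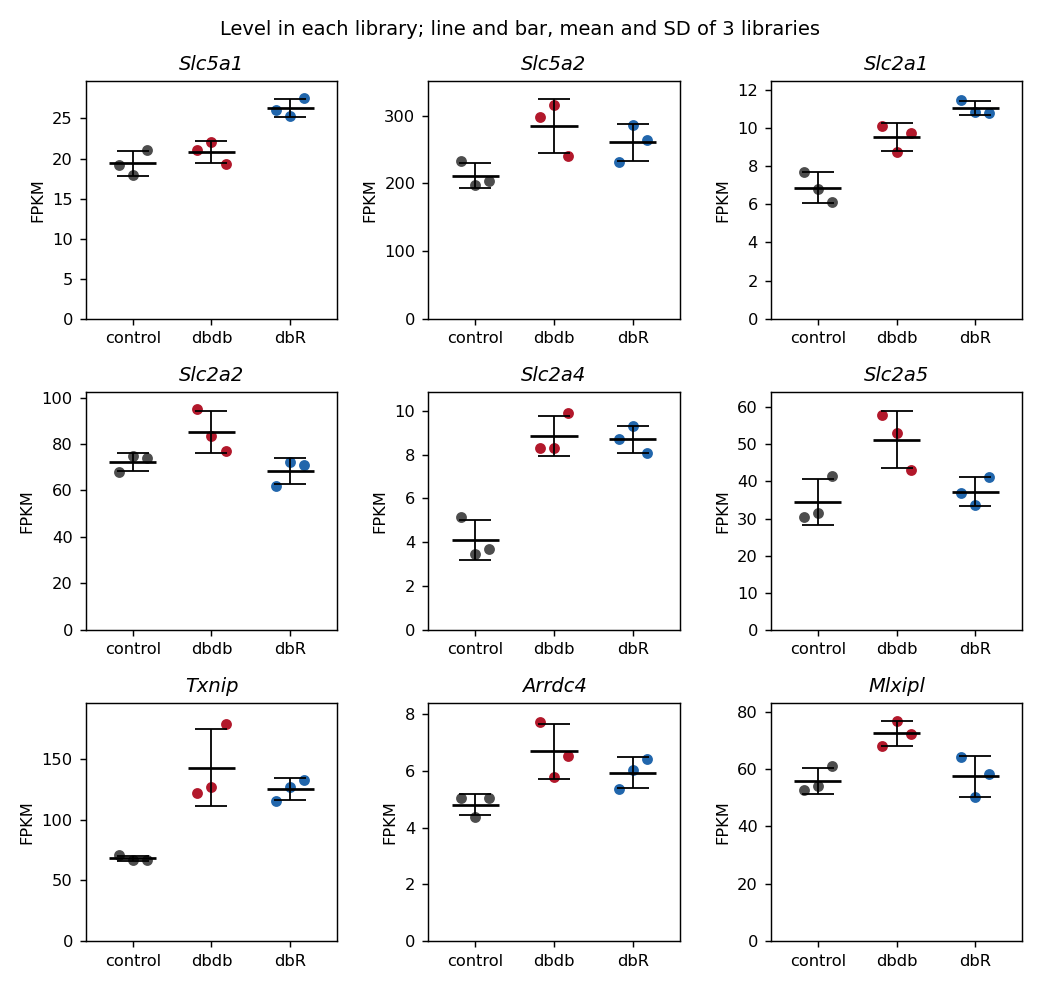
FPKM of the 9 genes (one panel each, vertical axis from 0) in the 3 control, 3 dbdb and 3 dbR libraries; points are libraries, the long line is the mean and the bar the SD. The dbdb libraries lie above the control libraries in 8 panels, all except that of Slc5a1, and the dbR libraries lie near the dbdb libraries for Slc2a4 and Txnip and near the control libraries for Slc2a2, Slc2a5 and Mlxipl.

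Compared with the control group, 7 of the 9 genes were upregulated in dbdb mice and none was downregulated (limma, Benjamini-Hochberg adjusted p under 0.05 over all 14537 genes). The 7 were Slc2a4, Txnip, Slc2a5, Slc2a1, Arrdc4, Slc5a2 and Mlxipl, and Slc2a2 and Slc5a1 did not pass the test. Over all genes, the same test called 26.4% in either direction and 13.1% higher in dbdb. All 3 dbdb libraries lay above all 3 control libraries for 8 of the 9 genes, and the groups did not overlap for 42.4% of all genes. The median difference was 0.46 on the log2 scale over the 9 genes and -0.003 over all genes.

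Between dbR and dbdb mice, who differ in rosiglitazone, none of the 9 genes passed the test (limma, Benjamini-Hochberg), and 5 had an unadjusted p under 0.05, as did 17.5% of all genes. The same test called 0.743% of all genes, and 0.564% of all genes as higher in dbR. Slc5a1 and Slc2a1 were above every dbdb library in all 3 dbR libraries, and Slc2a2, Slc2a5 and Mlxipl were below every dbdb library, where the groups did not overlap for 22.7% of all genes.

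Between dbR and control mice, Slc2a4, Txnip, Slc2a1 and Slc5a1 passed the test, all 4 higher in dbR, while the test called 24.1% of all genes in either direction and 12.3% as higher in dbR. The dbR libraries lay above the control libraries for 5 of the 9 genes, the 4 named and Arrdc4, and the groups did not overlap for 41.9% of all genes. The 3 comparisons share libraries with each other, so their values are given side by side and are not independent.

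**Figure D2:**
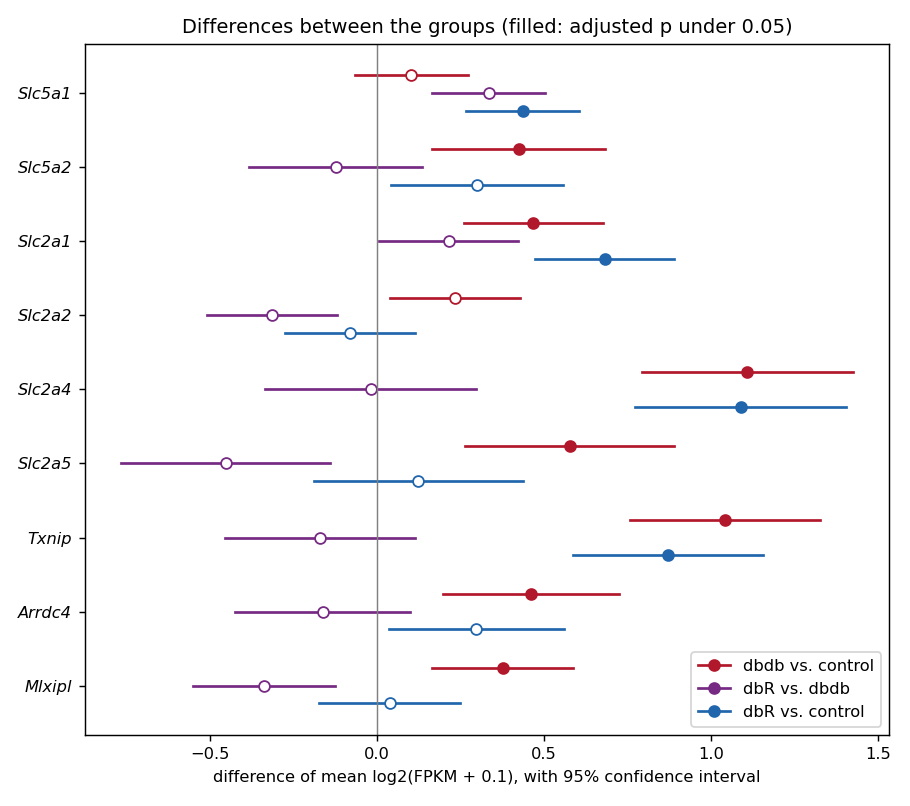
Difference of mean log2(FPKM + 0.1) for each of the 9 genes in the 3 comparisons, with the 95% confidence interval from limma; filled points have a Benjamini-Hochberg adjusted p under 0.05. The intervals of dbdb vs. control lie above 0 for every gene except Slc5a1, and no point of dbR vs. dbdb is filled.

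Slc5a2 encodes the high-capacity cotransporter that reclaims most filtered glucose, with 233, 198 and 204 FPKM in control, 299, 316 and 240.2 FPKM in dbdb and 232, 286 and 264 FPKM in dbR libraries. Every dbdb library was above every control library, and the dbR libraries overlapped with both groups. The control, dbdb and dbR means were 212 ± 18.4, 285 ± 39.8 and 261 ± 27.2 FPKM (SD, n = 3 each). Slc5a2 was higher by 0.42 in dbdb than in control mice on the log2 scale (SE 0.12, limma, Benjamini-Hochberg adjusted p = 0.0231). It differed by -0.12 between dbR and dbdb mice (95% confidence interval -0.38 to 0.13) and by 0.30 between dbR and control mice (adjusted p = 0.0884 from limma). The latter passed the test after scaling to the 75th percentile (0.0439), with mitochondrial transcripts left out (0.014) and without dbdb replicate 3 (0.0416). The call in dbdb mice was lost without control replicate 2, control replicate 3, dbdb replicate 1 or dbdb replicate 2 and with no filter on low values (adjusted p from 0.0677 to 0.0847 in limma), and over all 20 alternatives the adjusted p lay between 0.0016 and 0.0847. Without dbdb replicate 3 the difference was 0.54.

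The gene lies on the plus strand at chr7:128265657-128272430 (GRCm38), and 597 of the 2277 bases of its most abundant transcript, at the 3′ end, also belong to an exon of BC017158 on the minus strand. BC017158 was between 43.4 and 44.0 FPKM in control, between 49.6 and 60.9 FPKM in dbdb and between 51.5 and 53.1 FPKM in dbR libraries, higher by 0.38 in dbdb than in control mice (limma, Benjamini-Hochberg adjusted p = 0.00583). The libraries kept the strand of the RNA, but whether the FPKM were computed by strand is not given in the sources used here, and the part of BC017158 in the value of Slc5a2 was not tested. The annotation also places genes on the opposite strand over Txnip (Gm15441), Mlxipl (Gm43500), Slc2a1 (Gm12867 and Gm12868), Slc2a2 (1700112D23Rik) and Slc5a1 (5033423K11Rik), and their part was not tested either. Of the 4 transcripts of Slc5a2 with a mean of at least 0.1 FPKM, the most abundant (ENSMUST00000118169) held 72.5% (control), 75.8% (dbdb) and 74.2% (dbR) of the FPKM of the gene. It was higher in dbdb than in control mice by 0.49 (SE 0.10, adjusted p = 0.017 in a limma fit of transcripts). The next most abundant, ENSMUST00000033045, ends at chr7:128270064 and held 24.5%, 21.1% and 23.2% in the same groups. It differed by 0.23 in dbdb vs. control and was not called (SE 0.24, adjusted p = 0.627 in the same limma fit).

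Slc5a1, the high-affinity cotransporter of the last proximal segment, was at 19.2, 17.97 and 21.1 FPKM in control, 21.1, 22.1 and 19.3 FPKM in dbdb and 26.0, 25.3 and 27.5 FPKM in dbR libraries. The control and dbdb libraries overlapped, and each dbR library was above all 6 others. The 3 group means were 19.4 ± 1.56, 20.8 ± 1.39 and 26.3 ± 1.13 FPKM (SD, n = 3 each). The difference between dbdb and control mice was 0.10 on the log2 scale, with a 95% confidence interval from -0.07 to 0.27, and it passed the test only with mitochondrial transcripts left out (0.0168). Slc5a1 was higher by 0.44 in dbR than in control mice (SE 0.08, limma, Benjamini-Hochberg adjusted p = 0.00283). The difference of 0.33 between dbR and dbdb mice (95% confidence interval 0.17 to 0.50) had an adjusted p of 0.0718 in limma, between 0.046 and 0.204 over the alternatives, and passed the test after scaling to the 75th percentile (0.047) and after quantile normalization (0.046).

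The ratio of Slc5a2 to Slc5a1 within a library is not moved by a factor applied to the whole library, though quantile normalization can move it. It was 12.1, 11.0 and 9.67 in control, 14.2, 14.3 and 12.4 in dbdb and 8.92, 11.3 and 9.59 in dbR libraries. The dbdb libraries were above all others, and the control and dbR libraries overlapped. The log2 ratio differed by 0.32 between dbdb and control mice and by -0.46 between dbR and dbdb mice, each with p = 0.1 in a two-sided exact permutation test, the smallest p that 3 libraries against 3 can give. Between dbR and control mice it differed by -0.14 (exact permutation p = 0.4), and between all 6 db/db and the 3 control libraries by 0.09 (exact permutation p = 0.619).

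**Figure D3:**
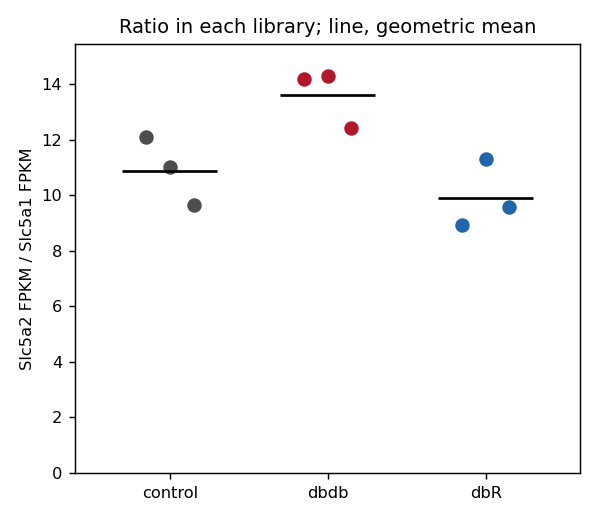
FPKM of Slc5a2 divided by FPKM of Slc5a1 in each library (vertical axis from 0), by group; the line is the geometric mean of 3 libraries. The 3 dbdb libraries lie between 12.4 and 14.3, above the control libraries (9.67 to 12.1) and the dbR libraries (8.92 to 11.3).

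Beside these, the 3 S1 and S2 markers other than Slc5a2 held none called higher and 1 called lower in dbdb vs. control, Slc22a6 (-0.58). Slc7a7, another of the 3, was called higher there after quantile normalization (0.33, adjusted p = 0.0404 in limma). The same held with mitochondrial transcripts left out (0.37, adjusted p = 0.0267 in limma). All 5 S3 markers were called lower in dbdb vs. control, with a median of -2.98 on the log2 scale. Slc7a13, an amino acid transporter of S3, fell from a mean of 471 FPKM in control to 59.2 FPKM in dbdb mice, while Slc5a1 was at the levels given above. Slc7a13 averaged 124 FPKM in dbR mice. It was the 1 S3 marker of 5 called higher in dbR than in dbdb mice (1.04, adjusted p = 0.0282 in limma). In the same comparison, Slc5a1 was higher in all 3 dbR libraries. The other S3 markers were not called there: Slc22a7 differed by 0.29, Slc6a18 by 0.08, Cyp7b1 by -0.11 and Atp11a by -0.23. The median of the 5 was 0.08. Slc6a18, the S3 marker that moved least in dbdb vs. control, was not called there after quantile normalization or after mitochondrial transcripts were left out. The part of the segment markers in the levels of Slc5a1 and Slc5a2 was not tested.

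Slc2a2 encodes the basolateral exit route for glucose in the early proximal tubule and was at 67.9, 74.6 and 74.0 FPKM in control, 94.9, 83.6 and 76.9 FPKM in dbdb and 62.1, 72.1 and 70.9 FPKM in dbR libraries. The lowest dbdb library, replicate 3, was just above the highest control library, and the dbR libraries overlapped with the control libraries. The difference between dbdb and control mice was 0.23 on the log2 scale (95% confidence interval 0.04 to 0.43, adjusted p = 0.0757 in limma with Benjamini-Hochberg). The difference between dbR and dbdb mice was -0.31 (95% confidence interval -0.51 to -0.12, adjusted p = 0.113 in limma). The first passed the test without dbdb replicate 3 (adjusted p = 0.0376) and after each of the 3 other scalings, and its adjusted p lay between 0.0026 and 0.222 over all 20 alternatives. The second passed after quantile normalization (0.046) and with mitochondrial transcripts left out (0.047), and lay between 0.046 and 0.267. Of the 6 general markers of the proximal tubule, 1 was called higher in dbdb vs. control. After quantile normalization or with mitochondrial transcripts left out, 3 of them were. Their part in the level of Slc2a2 was not tested.

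Slc2a5 encodes the fructose transporter of the brush border of the late proximal tubule. It was at 30.3, 31.4 and 41.6 FPKM in control, 57.9, 53.0 and 43.0 FPKM in dbdb and 37.0, 33.6 and 41.2 FPKM in dbR libraries. Every dbdb library was above every library of the other groups, dbdb replicate 3 by the smallest margin. Slc2a5 was higher by 0.58 in dbdb than in control mice (SE 0.14, limma, Benjamini-Hochberg adjusted p = 0.0139). It differed by -0.45 between dbR and dbdb mice without passing the test (95% confidence interval -0.77 to -0.14, adjusted p = 0.147 in limma), and dbR and control mice differed by 0.12 (95% confidence interval -0.19 to 0.44). The call in dbdb mice was lost with no filter on low values (0.0654) and without control replicate 1, at an adjusted p of 0.05002 in limma, within a range of 0.0015 to 0.0654 over the alternatives.

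Slc2a1, the widely expressed transporter found on the basolateral side of late proximal and distal segments, was at 7.71, 6.82 and 6.12 FPKM in control, 10.1, 8.74 and 9.72 FPKM in dbdb and 11.5, 10.9 and 10.8 FPKM in dbR libraries. The groups did not overlap with each other, and their means were 6.88 ± 0.793, 9.53 ± 0.714 and 11.1 ± 0.386 FPKM (SD, n = 3 each). Slc2a1 was higher by 0.47 in dbdb than in control mice (SE 0.09, limma, Benjamini-Hochberg adjusted p = 0.0054) and by 0.68 in dbR than in control mice (adjusted p = 0.000767). Between dbR and dbdb mice the difference was 0.21 (95% confidence interval 0.01 to 0.42, adjusted p = 0.273 in limma). The 5 erythroid markers summed to between 7.79 and 104 FPKM in control, between 6.73 and 17.5 FPKM in dbdb and between 10.3 and 18.2 FPKM in dbR libraries, so their ranges overlapped between the groups.

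Slc2a4 encodes the transporter that insulin brings to the surface of muscle and fat cells. It was at 5.15, 3.46 and 3.69 FPKM in control, 8.31, 8.32 and 9.90 FPKM in dbdb and 8.71, 9.32 and 8.09 FPKM in dbR libraries. All 6 db/db libraries were above the control libraries, and dbdb and dbR libraries overlapped. Slc2a4 was higher by 1.11 in dbdb than in control mice (SE 0.14, limma, Benjamini-Hochberg adjusted p = 0.000468), and by 1.09 in dbR than in control mice (adjusted p = 0.000596). The difference between dbR and dbdb mice was -0.02 (95% confidence interval -0.34 to 0.30), and its sign changed with the scaling. The call in dbdb mice stayed under every alternative, with an adjusted p between 0.0002 and 0.0073. These levels rest on few reads, an estimated 200 to 610 fragments per library.

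The full-length transcript of Slc2a4 (ENSMUST00000018710) held 79.8% (control), 84.7% (dbdb) and 82.6% (dbR) of the FPKM of the gene. It rose from 3.27 ± 0.173 FPKM in control to 7.49 ± 0.9998 FPKM in dbdb mice (SD, n = 3 each). Of the markers of the tissues best known for Slc2a4, the 6 of adipocytes summed to between 0.351 and 3.01 FPKM in control, at most 0.1001 FPKM in dbdb and at most 0.701 FPKM in dbR libraries, with Adipoq and Plin1 at 0 in all 3 dbdb libraries. The 4 of skeletal muscle summed to between 0.706 and 2.28 FPKM in control, between 0.936 and 1.78 FPKM in dbdb and between 1.38 and 2.39 FPKM in dbR libraries. Nearly all of that sum was Mylpf, which was present in every library and not called (0.23 in dbdb vs. control), while Ckm and Acta1 were at 0 in all db/db libraries. In dbdb vs. control, the 3 markers of the distal convoluted tubule were called higher, as were 3 of 5 markers of the collecting duct. In dbR vs. dbdb, 2 collecting duct markers were called higher, Fxyd4 by 0.64 and Atp6v1g3 by 0.52, and neither with mitochondrial transcripts left out. Their part in the level of Slc2a4 was not tested.

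Txnip encodes an alpha-arrestin that also binds thioredoxin. It was at 70.6, 67.1 and 67.0 FPKM in control, 122, 127 and 179 FPKM in dbdb and 115, 127 and 133 FPKM in dbR libraries. The control libraries were close to each other and below all db/db libraries, and the dbdb and dbR libraries overlapped. Txnip was higher by 1.04 in dbdb than in control mice (SE 0.13, limma, Benjamini-Hochberg adjusted p = 0.000359) and by 0.87 in dbR than in control mice (adjusted p = 0.0011). Between dbR and dbdb mice it differed by -0.17 (95% confidence interval -0.45 to 0.11). Without dbdb replicate 3, the highest library, that difference was 0.005 and the one between dbdb and control mice was 0.87. Both transcripts of Txnip rose in dbdb vs. control, ENSMUST00000074519 by 1.16 and ENSMUST00000049093 by 0.88 on the log2 scale (adjusted p = 0.002 and 0.005 in a limma fit of transcripts).

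Arrdc4, the closest relative of Txnip in this network, was at 5.03, 4.37 and 5.04 FPKM in control, 7.74, 5.80 and 6.53 FPKM in dbdb and 5.37, 6.02 and 6.43 FPKM in dbR libraries. All db/db libraries were above the control libraries, and dbdb and dbR libraries overlapped. As for Slc2a4, these levels rest on few reads, an estimated 350 to 580 fragments per library. Arrdc4 was higher by 0.46 in dbdb than in control mice (SE 0.12, limma, Benjamini-Hochberg adjusted p = 0.0176). It differed by -0.16 between dbR and dbdb mice (95% confidence interval -0.43 to 0.10) and by 0.30 between dbR and control mice (adjusted p = 0.0956 in limma), the latter called with mitochondrial transcripts left out (0.0242). The call in dbdb mice was lost without control replicate 2 (0.0614) or dbdb replicate 1 (0.0542), with no filter on low values (0.0539) and for the most abundant transcript alone (0.0552), and the adjusted p lay between 0.0021 and 0.0614 over the alternatives.

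Mlxipl was at 52.6, 53.9 and 60.9 FPKM in control, 68.0, 76.9 and 72.3 FPKM in dbdb and 64.2, 50.0 and 58.1 FPKM in dbR libraries. The dbdb libraries were above all others, and the control and dbR libraries overlapped. Mlxipl was higher by 0.38 in dbdb than in control mice (SE 0.09, limma, Benjamini-Hochberg adjusted p = 0.0166). It differed by -0.34 between dbR and dbdb mice without passing the test (95% confidence interval -0.55 to -0.13, adjusted p = 0.114 in limma) and differed from control by 0.04 (95% confidence interval -0.17 to 0.25). The call in dbdb mice was lost without control replicate 1 (0.0566), control replicate 2 (0.0524) or dbdb replicate 2 (0.0611) and with no filter on low values (0.0603), within a range of 0.0044 to 0.0611 over the alternatives. The transcript ENSMUST00000201977 of 683 bases held 46.2% of the FPKM of the gene in control mice and ENSMUST00000005507 of 3622 bases 36.6%, so much of the summed level rests on a short transcript. The short one was not called on its own in dbdb vs. control (0.35, adjusted p = 0.0509 in a limma fit of transcripts).

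The 9 genes did not all rise and fall in the same libraries within a group. In dbdb replicate 3, Slc5a1, Slc5a2, Slc2a2 and Slc2a5 had the lowest level of the dbdb group, while Txnip and Slc2a4 had the highest. In the dbR group, Slc5a2, Slc2a2, Txnip and Arrdc4 were lowest in replicate 1 and Mlxipl was highest there.

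By the root mean square difference of centered log2 profiles over the 9 libraries, the genes most like Slc2a4 among 11615 genes with a mean of at least 1 FPKM were Hsd11b2 (0.073), Muc1 (0.097) and Slc16a5 (0.10), where the median over all genes was 0.57. Hsd11b2 averaged 25.4 FPKM in control, 51.4 FPKM in dbdb and 51.8 FPKM in dbR mice. The genes most like Txnip were Xdh (0.078), Lurap1 (0.097) and Tspan1 (0.11), and Xdh averaged 8.04, 16.5 and 15.1 FPKM in the control, dbdb and dbR groups. Those most like Slc2a5 were Sbk1 (0.12), Fgfrl1 (0.12) and Cyp4f17 (0.13), where the median over all genes was 0.34.

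Among the other facilitative transporters, 2 of the 7 genes tested were called higher and none lower in dbdb vs. control, and the same count was found in dbR vs. control. Slc2a9, the urate transporter, was between 4.40 and 8.01 FPKM in control, between 10.2 and 11.3 FPKM in dbdb and between 9.05 and 12.5 FPKM in dbR libraries, with a difference of 0.87 in dbdb vs. control (limma, Benjamini-Hochberg adjusted p = 0.009). Slc2a8, an intracellular transporter, was higher by 0.60 (adjusted p = 0.004 in limma). Slc2a3, the neuronal GLUT3, was at or below 0.578 FPKM in every library.

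Among the other SLC5 transporters, 3 of 7 tested were called higher and 1 lower in dbdb vs. control, and 4 higher and 1 lower in dbR vs. control. Slc5a10, a mannose and fructose cotransporter, was between 71.3 and 84.7 FPKM in control, between 117 and 150 FPKM in dbdb and between 105 and 133 FPKM in dbR libraries (dbdb vs. control 0.80, limma, Benjamini-Hochberg adjusted p = 0.001). Slc5a9, which carries mannose and glucose, was higher by 0.52 in dbdb and by 0.83 in dbR than in control mice. The 2 lactate cotransporters went in opposite directions: Slc5a12 of the early tubule was higher by 0.55 and Slc5a8 of the late tubule was lower in dbdb than in control mice (-0.62).

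Of 7 partners and regulators of the SGLT proteins, Sgk1 was called higher and Pdzk1 lower in dbdb vs. control, near the 26.4% called over all genes. Sgk1, a kinase that raises the surface level of SGLT1, was between 30.2 and 35.4 FPKM in control, between 165 and 297 FPKM in dbdb and between 78.6 and 213 FPKM in dbR libraries, a difference of 2.61 in dbdb vs. control (limma, Benjamini-Hochberg). The call of Pdzk1, a scaffold of the brush border (-0.29), was lost after quantile normalization and with mitochondrial transcripts left out. Pdzk1ip1 (MAP17), the partner that SGLT2 needs for transport, was between 571 and 754 FPKM in the 9 libraries and differed by -0.05 between dbdb and control mice, with the opposite sign after quantile normalization (0.13, adjusted p = 0.0465 in limma).

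In the network of Mondo and MLX factors and alpha-arrestins, 5 of 10 tested genes were called higher and 3 lower in dbdb vs. control, 3 and 2 after quantile normalization and 5 and 1 with mitochondrial transcripts left out. Mlxip (MondoA), the relative of ChREBP, was higher by 0.54 and Mlx, the partner of both, was lower in dbdb than in control mice (-0.49, limma, Benjamini-Hochberg adjusted p = 0.009). Mnt, a repressor that also pairs with MLX, was higher by 0.52. Arrdc2 was at 1.48 ± 0.183 FPKM in control and 3.10 ± 1.14 FPKM in dbdb mice (SD, n = 3 each), a call lost after quantile normalization (0.0678).

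Of the textbook targets of ChREBP, 4 of 11 tested were called higher and 2 lower in dbdb vs. control (5 and 1 with mitochondrial transcripts left out). Pklr, the pyruvate kinase of liver and kidney, was higher by 0.84 and G6pc, which releases glucose from glucose-6-phosphate, by 1.43 (limma, Benjamini-Hochberg). G6pc was between 126 and 199 FPKM in control, between 409 and 465 FPKM in dbdb and between 320 and 417 FPKM in dbR libraries. The lipogenic target Scd1 was lower in dbdb than in control mice (-0.96, adjusted p = 0.011 in limma), and Elovl6, a fatty acid elongase, was called higher in dbR vs. control (0.56) and not in dbdb vs. control (0.33, adjusted p = 0.0873 in limma). Fasn, the fatty acid synthase, named after its values were seen, was lower by the same test in dbdb (-0.46, adjusted p = 0.0106) and dbR (-0.40, adjusted p = 0.021) than in control mice, and neither call held with mitochondrial transcripts left out. The median difference of the 11 was 0.33, where that of all genes was -0.003.

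Of 9 tested genes of GLUT4 trafficking, 4 were called higher in dbdb vs. control and none lower. Sort1, the sortilin of GLUT4 vesicles, was higher by 0.67 and Vamp2, their fusion protein, by 0.57, and both were also called in dbR vs. control. Mef2d, a factor that activates the Slc2a4 promoter, was higher by 0.37 and Tbc1d1, a Rab regulator, by 0.19 (limma, Benjamini-Hochberg adjusted p = 0.010 and 0.030). Of 5 tested hexokinase and sensing genes, Hk1 alone was called, higher by 0.88 in dbdb vs. control, near the 26.4% called over all genes. Of 3 tested glucose-6-phosphatase genes, G6pc and Slc37a4, its glucose-6-phosphate transporter (0.41), were called higher. No gene of these 8 lists was called in dbR vs. dbdb, where 0.743% of all genes were called.

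**Figure D4:**
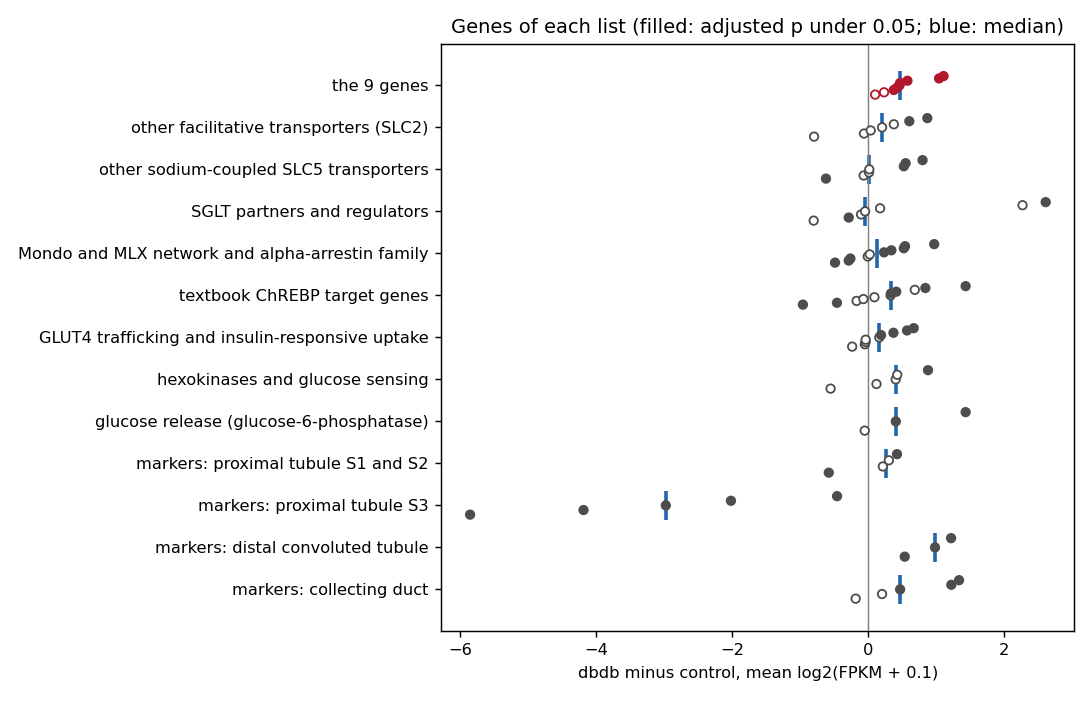
Difference dbdb minus control of mean log2(FPKM + 0.1) for the 9 genes and the tested genes of the 8 other lists and of 4 marker lists (1 point per gene; filled, Benjamini-Hochberg adjusted p under 0.05 in limma; blue line, median of the list). The 9 genes lie between 0.10 and 1.11, while the S3 markers reach -5.85; Slc5a2 and G6pc appear in more than 1 line.

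Of the marker lists not given above, all 4 endothelial and all 4 leukocyte markers were called lower in dbdb than in control mice, with medians of -0.43 and -1.20 on the log2 scale, of which 2 endothelial calls were lost with mitochondrial transcripts left out. Of the endothelial markers, 2 were called higher in dbR than in dbdb mice, 3 after scaling to the 75th percentile or quantile normalization and 1 with mitochondrial transcripts left out. None of the 4 smooth muscle and pericyte markers and 1 of the 4 podocyte markers was called in dbdb vs. control, or 3 podocyte markers with mitochondrial transcripts left out. For none of the 9 genes was the part of these cells in its level tested.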

How the data were processed

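Total RNA of renal cortex was depleted of ribosomal RNA and made into strand-specific libraries by the authors, who aligned the reads with TopHat2 (2.0.9) to GRCm38.p2 and deposited the FPKM of each transcript per library, computed with Cufflinks (2.1.1), per the labels and methods. FPKM were summed per gene over 50660 mRNA transcripts. log2(FPKM + 0.1) of the 14537 genes with a mean of at least 0.1 FPKM was fitted with limma 3.58.1 (R 4.3.3), with a variance trend and 3 groups in 1 model. Benjamini-Hochberg adjustment covered all genes tested, and genes with an adjusted p under 0.05 were called. Differences on this scale understate the change of low genes. The fit was tested on simulated data.

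No counts were used. The smallest steps between the low FPKM values of genes with 1 transcript gave the depth: between 90.9% and 93.6% of these values per library were whole multiples of 1 fragment within 0.1. Groups came from the sample labels. The limma p-values rest on a spread between mice within groups that is shared by the 3 groups and drawn toward a trend over all genes tested. All 9 genes are named, and of each other list the genes called in at least 1 comparison, up to 4 by the largest difference in any comparison, with at most 2 others needed for the family. The genes and lists were chosen with earlier results of these data known. Positions came from GENCODE M21 (GRCm38) and promoters from RefSeq (GRCm38.p6). The files pair gene IDs and symbols. The alternatives were other pseudocounts, filters, scalings, fits and a replicate block, and each library left out in turn. Scalings of the other lists were added after seeing the data. Calculations outside R used scipy 1.17.1, pandas 2.3.3, numpy 2.4.6 and matplotlib 3.10.9 under python 3.11.15.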

Additional observations from a re-analysis of the deposited data

How the results depend on the processing

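Over 20 alternatives in each of 3 comparisons, 503 of 540 values of the 9 genes kept their direction and their side of the threshold, 16 fell below it, 13 passed it and 8 changed sign. The calls of Slc2a1, Slc2a4 and Txnip in dbdb vs. control, and of these and Slc5a1 in dbR vs. control, held under all 20. Of the 9 genes, 7 were called in dbdb vs. control, 9 with mitochondrial transcripts left out, 5 among most abundant transcripts, 3 without a filter on low values and between 4 (without control replicate 2) and 8 with 1 library left out. Over all genes, 3840 were called there, 2978 without a filter and between 2761 and 3830 with 1 library left out. In dbR vs. dbdb, 0 were called, but 1 after scaling to the 75th percentile (Slc5a1), 2 after quantile normalization (Slc5a1 and Slc2a2) and 1 with mitochondrial transcripts left out (Slc2a2). Over all genes in dbR vs. dbdb, 108 were called, 17 without a filter, 166 at a mean FPKM of at least 1, 224 after scaling to the 75th percentile, 234 after quantile normalization, 22 with only the 6 libraries, 66 with lncRNA genes included, 5 among transcripts and between 2 and 141 with 1 library left out.

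With mitochondrial transcripts left out, the median of all genes moved to 0.15 in dbdb vs. control, and 78.3% of 4457 called genes were higher in dbdb, against 49.5% of 3840 with FPKM as deposited. In dbR vs. dbdb 48.6% of 107 were higher, against 75.9% of 108, and in dbR vs. control 70.5% against 51.1%, or 61.9% after scaling to the 75th percentile. The values that changed sign were all small: in dbR vs. dbdb, Slc2a4 was 0.0095 after scaling to the 75th percentile, 0.0071 after quantile normalization, 0.064 without dbdb replicate 3 and 0.032 without dbR replicate 3, and Txnip was 0.0051 without dbdb replicate 3. In dbR vs. control, Slc2a2 was 0.014 with mitochondrial transcripts left out, and Mlxipl was -0.0032 without control replicate 1 and -0.046 without dbR replicate 1. With 1 library left out, the values lay between -0.069 and 0.064 for Slc2a4 and between -0.27 and 0.0051 for Txnip in dbR vs. dbdb, and between -0.046 and 0.13 for Mlxipl in dbR vs. control. The cause was not tested.

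The labels number the mice in each group but give no shared litter or batch, and same-numbered libraries did not deviate together (correlations of -0.17 to 0.06). With a replicate block, 3345 genes were called in dbdb vs. control, 23 in dbR vs. dbdb and 3030 in dbR vs. control, and 7, 0 and 4 of the 9 genes.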
